A study of Mus musculus with 4 samples.

Results

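Ribosome biogenesis and RNA polymerase I transcription were followed through 50 genes in CD8+ T cells exposed to NaBu. The genes were taken by symbol from a fixed list of small-subunit processome, snoRNP, large-subunit assembly, RNA polymerase I (Pol I) and abundant nucleolar genes. All 50 were found among the 17559 genes listed in the files. Ribosomes are assembled in the nucleolus around a long rRNA precursor that Pol I transcribes. Small nucleolar ribonucleoproteins (snoRNPs) modify that precursor, and separate sets of assembly factors fold, cut and export the small and the large subunit. T cells enlarge their nucleoli when they are activated, and this machinery accompanies the growth and division of an effector T cell.

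The study compared 2 libraries of NaBu-treated cells with 2 libraries of control cells. NaBu is sodium butyrate, the salt of a short-chain fatty acid that inhibits class I histone deacetylases. Both groups were OT-I CD8+ T cells of the C57BL/6 strain, which carry a transgenic T-cell receptor for an ovalbumin peptide, taken from a tissue labelled LN and enriched by negative selection to a stated purity above 95%. Both had been stimulated for 2 d with antibodies coated on the plate, anti-CD3 at 1 µg/ml beside anti-CD28 at 2 µg/ml, in medium with 10 ng/ml IL-2, and then kept for a further 2 d in IL-2 at the same concentration. The NaBu group then received 1 mM NaBu and the control group a control treatment, each for 12 h. The OT-I cells therefore carry the same transgenic receptor, and activation came from antibodies and not from antigen. The sources used here do not give the number of animals or of separate cultures.

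Expected counts per library came to 19859649 and 19857701 in NaBu and 20344399 and 20548571 in control, and each of the 50 genes had between 342 and 32285 of them in every library. The CD8+ T-cell markers *Cd3e*, *Cd3d*, *Cd3g*, *Cd8a* and *Cd8b1* were high in all 4 libraries, with a summed FPKM of 1200 and 1210 in NaBu, against 1220 and 1180 in control (FPKM, fragments scaled to transcript length and to the mapped total of the library). Within that sum *Cd3g* was at 557 and 555 FPKM in NaBu, against 407 and 375 in control, while *Cd3d*, *Cd8a* and *Cd8b1* were lower in NaBu, for example *Cd8b1* at 155 and 155 FPKM in NaBu, against 218 and 215 in control. Of 28 markers of other cell types 22 were listed, and their summed FPKM was 59.4 and 58.8 in NaBu, against 56.8 and 57.5 in control. Within them the myeloid markers summed to 25.1 and 24.9 in NaBu, against 17.5 and 19.9 in control, and the B-cell markers to 2.62 and 1.96 in NaBu, against 5.73 and 4.07 in control. The erythroid markers summed to 6.69 and 7.37 in NaBu, against 1.34 and 1.39 in control. NK-cell markers summed to 4.94 and 5.62 in NaBu, against 10.7 and 9.55 in control. CD4+ T-cell markers came to 1.01 and 0.89 in NaBu, against 0.54 and 0.39 in control, and stromal markers to 19.0 and 18.0 in NaBu, against 20.9 and 22.2 in control. The erythroid sum was mostly *Hba-a1*, the NK-cell sum mostly *Klrb1c* and the B-cell sum mostly *Cd79b*. Single markers moved both ways within the sums. *Itgam* was at 4.83 and 3.79 FPKM in NaBu, against 0.45 and 0.45 in control. *Mpeg1* was at 1.96 and 1.86 in NaBu, against 0.20 and 0.39 in control, and *Pdgfrb* at 1.51 and 1.2 in NaBu, against 0.05 and 0.10 in control. *Pecam1* was lower, at 16.96 and 16.25 in NaBu, against 20.83 and 21.93 in control. The most abundant myeloid marker, *Fcer1g*, overlapped, at 13.92 and 14.45 in NaBu, against 14.41 and 16.49 in control. *Adgre1* and *Cdh5* were at no more than 0.02 and 0.01 FPKM in any library. The part of such cells in the results was not tested.

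Most ribosome biogenesis genes were lower after NaBu, and a small set was higher. By edgeR's quasi-likelihood test with Benjamini-Hochberg adjustment over all 12943 tested genes, at an adjusted p of 0.05, 31 of the 50 genes (62.0%) fell, 5 (10.0%) rose and 14 did not pass. Over all tested genes 34.1% fell and 34.5% rose, so that 68.6% passed in all, against 72.0% of the 50. The share that passed in either direction was therefore near that of the whole transcriptome, whereas the split by direction was 31 lower to 5 higher, beside 4413 lower to 4471 higher over all tested genes. On the log2 scale the median change was -0.26 for the 50 genes and 0.00 for all tested genes, while the median absolute log2 fold change was 0.33 for the 50 genes and 0.46 for all. Against a null of a 1.5-fold change, 9 of the 50 fell and 0 rose by edgeR's glmTreat, beside 12.1% and 17.1% of all tested genes; at an unadjusted p of 0.05 it was 10 lower and 0 higher. These 9 were *Utp20*, *Dkc1*, *Ubtf*, *Mybbp1a*, *Gar1*, *Npm1*, *Nop56*, *Ncl* and *Ddx18*. In bulk RNA, fewer cells of a type and less RNA per cell cannot be told apart.

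**Figure D1:**
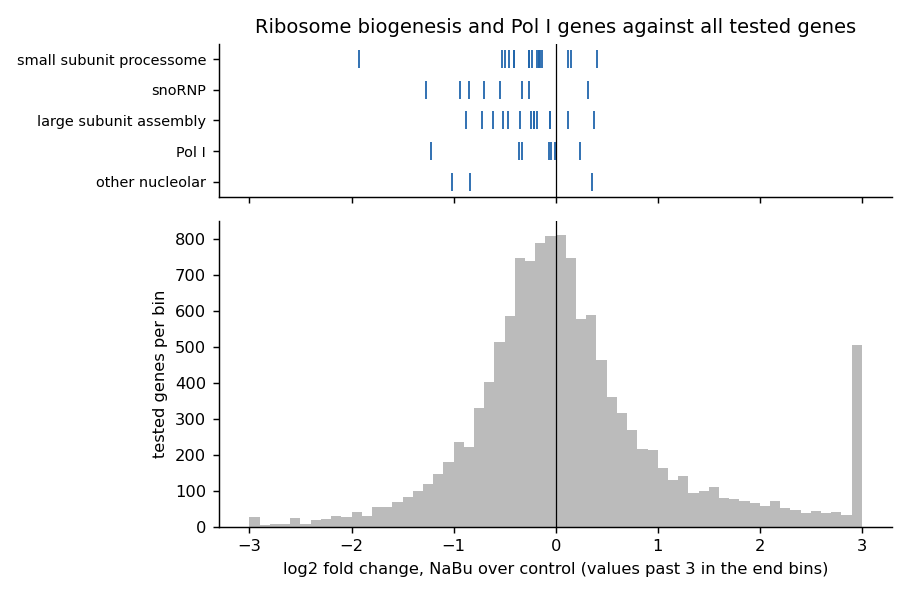
Upper panel, the log2 fold change (NaBu over control) of each of the 50 genes as a tick, by role; lower panel, the number of the 12943 tested genes per bin of log2 fold change. Of the 50 genes 42 lie left of 0 and 8 right of it, and *Utp20* lies farthest left at -1.93.

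As a whole, transcripts of the 50 genes took a smaller share of the library after NaBu. They made up 0.509% and 0.508% of the expected counts in NaBu, against 0.645% and 0.724% in control. Their summed FPKM was 2084.4 and 2082.3 in NaBu, against 2666.7 and 2980.3 in control, a ratio of 0.738 ± 0.058 (SD, n = 2 each). The NaBu libraries lay below both control libraries. *Npm1* alone held 29.6% and 28.7% of that sum in NaBu, against 36.1% and 38.2% in control, and without it the ratio over the other 49 genes was 0.833 ± 0.0458 (SD, n = 2 each).

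The replicate libraries were not equally close. This was not particular to these genes: in the fit of all tested genes the replicate chi-square per degree of freedom was 2.77 in NaBu and 7.27 in control. The libraries of a group differed by a median of 3.2% in NaBu and 9.0% in control over the 50 genes, and control 2 was above control 1 for 45 of them, whereas it was above control 1 for 48.4% of all tested genes. Leaving out NaBu 1 left 22 genes lower and 3 higher, NaBu 2 left 23 lower and 3 higher, control 1 left 34 lower and 5 higher, and control 2 left 29 lower and 6 higher. Over all tested genes, too, fewer passed in each direction without either NaBu library. FPKM values are on the authors' scale of mapped totals, and log2 fold changes are on edgeR's TMM scale. Scaling by library totals put the median over all tested genes at 0.102 in place of 0.005 (log2), and 24 of the 50 genes then fell and 8 rose. A gene of small change can therefore have a slightly higher FPKM in NaBu beside a log2 fold change just below 0.

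**Figure D2:**
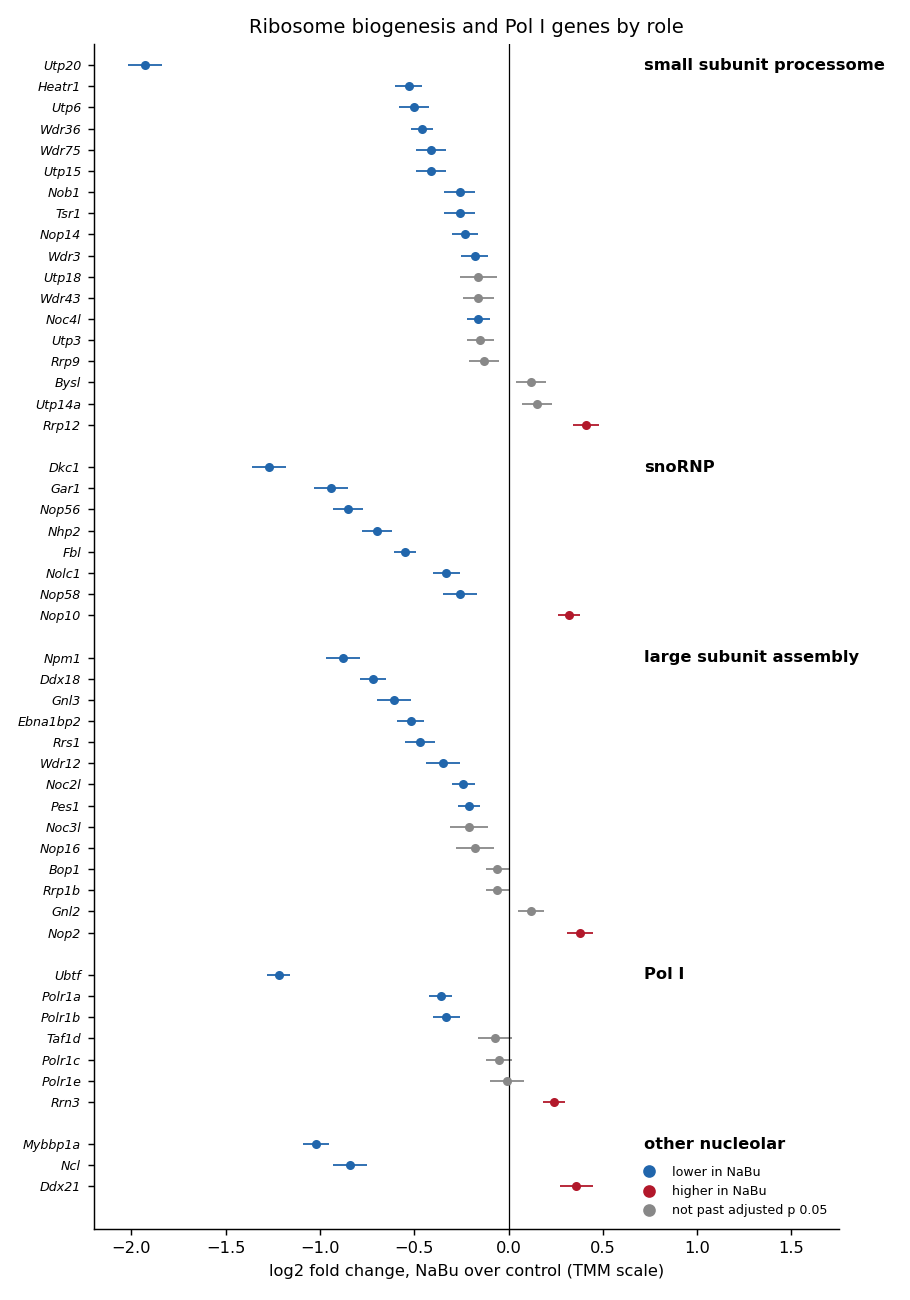
The log2 fold change (NaBu over control, TMM scale) of each of the 50 genes, by role, with bars of 1 standard error from the fit to 2 libraries per group. Blue and red points passed an adjusted p of 0.05; each role holds more blue than red points, and each has 1 red point.

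Promoter windows were read because Myc-type factors bind the letters CACGTG and this family of genes is a textbook Myc target set. RefSeq windows on GRCm38.p6 (mm10), from 250 bases before to 50 after a transcript start, were found for 42 of the 50 genes (51 windows). CACGTG, which reads the same on both strands, was present for 8 of the 42 genes, in 15.7% of their windows, beside 9.1% of the windows of all genes with any count and 7.2% of all windows. CCGGAA or its complement TTCCGG stood in 39.2% of the windows, beside 22.9% of those of genes with any count. GGGCGG or CCGCCC stood in 74.5%, beside 56.0%. Of the 8 genes with CACGTG, *Utp20*, *Mybbp1a*, *Tsr1* and *Pes1* fell, *Nop2* and *Rrn3* rose, and *Utp18* and *Wdr43* did not pass. These 4 lower and 2 higher genes stand beside 22 (64.7%) and 2 (5.88%) of the 34 genes whose windows lacked CACGTG. Among all tested genes 34.1% were lower and 34.5% higher. With only 8 genes such shares are coarse, and a link between CACGTG and direction was not tested. A match describes letters in a window and is not a measured binding site. The windows below are shown so that genes of opposite direction can be set side by side; each is 30 bases, 5′ to 3′ on the strand of the gene, with CACGTG in capitals, and the first base of the match is given relative to the transcript start.
Utp20 (chr10:88826768-88826797, minus strand, 38 after the start; fell): gcgcccagcggcactaactaCACGTGagga
Mybbp1a (chr11:72441347-72441376, plus strand, 41 after the start; fell): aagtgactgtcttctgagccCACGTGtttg
Tsr1 (chr11:74898084-74898113, plus strand, 25 after the start; fell): agtagagttcacttggtgcaCACGTGgact
Pes1 (chr11:3963957-3963986, plus strand, 3 after the start; fell): cttcagggccctaggcagggCACGTGcggg
Nop2 (chr6:125131803-125131832, plus strand, -60 from the start; rose): tgaggggcgtgtccctggatCACGTGtgtt
Rrn3, distal (chr16:13780464-13780493, plus strand, -215 from the start; rose): cacctcctgagcgccaaggtCACGTGcaca
Rrn3, proximal (chr16:13780631-13780660, plus strand, -48 from the start; rose): tgcgatccttacgctctgctCACGTGggcc
Utp18 (chr11:93885777-93885806, minus strand, -20 from the start; not called): cgtagcgcgcgagcgccggtCACGTGgctt
Wdr43 (chr17:71616212-71616241, plus strand, 18 after the start; not called): tgcgcctgcgcccgggcgaaCACGTGgctg
*Rrn3* was the only gene of the 8 with CACGTG at 2 positions, and both lie within the 250 bases before its start.
Rrn3, 250 bases before the start (chr16:13780449-13780698, plus strand): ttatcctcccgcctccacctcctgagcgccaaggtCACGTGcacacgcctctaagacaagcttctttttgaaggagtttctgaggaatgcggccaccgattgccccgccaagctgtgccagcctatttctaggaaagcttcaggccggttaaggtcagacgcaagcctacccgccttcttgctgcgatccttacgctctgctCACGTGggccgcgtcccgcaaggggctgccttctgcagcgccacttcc

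The small-subunit processome binds the nascent rRNA precursor and cuts and folds the part that becomes the small subunit. The list for this role also holds late small-subunit factors, such as *Tsr1*, *Nob1* and *Bysl*, and *Rrp12*, which takes part in subunit export in yeast. Of the 18 listed genes 11 (61.1%) fell, 1 (5.56%) rose and 6 did not pass, with a median log2 fold change of -0.21. Over all tested genes 34.1% fell and 34.5% rose. The count of 11 became 6 without NaBu 1, without NaBu 2 or with library totals as the scale, and 4 with limma and no filter. *Utp20* (10:88746607-88826814, mm10), which encodes a very large HEAT-repeat scaffold of the processome, had 2.16 and 2.31 FPKM in NaBu, against 7.44 and 8.54 FPKM in control. Both NaBu libraries lay far below both controls, with a log2 fold change of -1.93 ± 0.09 (SE), a 3.82-fold fall (edgeR adjusted p = 3.15e-08). No other gene of the 50 moved as far, and no other processome gene passed the 1.5-fold null.

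UTP-A, the subcomplex that first meets the precursor in yeast, is represented by *Heatr1*, *Wdr75*, *Utp15* and *Wdr43*. *Heatr1*, the counterpart of yeast Utp10, had 10.3 and 10.7 FPKM in NaBu, against 13.6 and 14.7 FPKM in control (log2 fold change -0.53 ± 0.07 SE, edgeR adjusted p = 3.85e-05). *Wdr75* had 14.4 and 13.5 FPKM in NaBu, against 16.2 and 18.4 FPKM in control (log2 fold change -0.41). *Utp15* had 9.76 and 9.68 FPKM in NaBu, against 11.5 and 12.7 FPKM in control (log2 fold change -0.41). Those 3 genes fell with no overlap between the groups. *Wdr43* did not pass, at 27.8 and 28.6 FPKM in NaBu, against 27.2 and 31.7 FPKM in control, with both NaBu libraries inside the range of the controls (log2 fold change -0.16, edgeR adjusted p = 0.0887).

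Among the subunits listed for this role, UTP-B, a subcomplex made up mostly of WD-repeat proteins, showed the same count as UTP-A, 3 of 4 genes lower. *Utp6* had 14.8 and 13.1 FPKM in NaBu, against 17.3 and 19.6 FPKM in control (log2 fold change -0.50). *Wdr36*, the counterpart of yeast Utp21, had 18.8 and 19.6 FPKM in NaBu, against 24.4 and 25.1 FPKM in control (log2 fold change -0.46). *Wdr3* had 14.5 and 14.8 FPKM in NaBu, against 15.2 and 15.9 FPKM in control. Its fall was small and lay just inside the threshold (log2 fold change -0.18 ± 0.07 SE, edgeR adjusted p = 0.0362). *Wdr3* kept its call in only 3 of 14 alternatives and lost it with library totals and with DESeq2, so the count of 3 is uncertain. *Utp18* had 13.5 and 13.3 FPKM in NaBu, against 12.7 and 15.3 FPKM in control. The controls spanned the NaBu values and the test was not passed. Other subunits were counted with the further small-subunit factors below. For UTP-A, *Nol11* fell (log2 fold change -0.65) while *Cirh1a* rose (0.36, edgeR adjusted p = 0.000396). For UTP-B, *Pwp2* (-1.19) and *Tbl3* (-0.63) fell. The equal counts therefore hold only for the subunits listed for this role.

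The other genes of this list had log2 fold changes between -0.26 and 0.41. *Nop14* and *Noc4l* encode partners that bind each other in the particle, *Tsr1* a GTPase-like late factor, and *Nob1* the endonuclease that makes the final cut of the small-subunit rRNA. *Nob1* had 24.2 and 23.5 FPKM in NaBu, against 28.2 and 25.1 FPKM in control (log2 fold change -0.26), and *Tsr1* had 14.4 and 13.9 FPKM in NaBu, against 14.9 and 16.8 FPKM in control (log2 fold change -0.26). *Nop14* and *Noc4l* had log2 fold changes of -0.23 and -0.16. All 4 fell, by no more than 0.26 on the log2 scale, and all 4 calls were lost without NaBu 1, without NaBu 2 and with library totals. Of 14 alternatives *Nop14* and *Tsr1* kept their calls in 8, *Nob1* in 6 and *Noc4l* in 4. *Utp3* (log2 fold change -0.15, edgeR adjusted p = 0.0726) and the U3 snoRNP protein gene *Rrp9* (-0.13) did not pass. With the GC trend removed both were called lower, *Utp3* at -0.15 (edgeR adjusted p = 0.0372) and *Rrp9* at -0.36 (0.000673). *Bysl*, which encodes a late small-subunit factor, and *Utp14a*, an activator of the particle's helicase in yeast, had log2 fold changes of 0.12 and 0.15 and did not pass in the main test. *Utp14a* kept that result in 8 of 14 alternatives and was called higher in the others. *Bysl* was called higher with library totals.

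*Rrp12* moved the other way. It encodes a HEAT-repeat protein that in yeast takes part in subunit export, and it had 11.5 and 11.2 FPKM in NaBu, against 7.95 and 8.08 FPKM in control. Both NaBu libraries were above both controls (log2 fold change 0.41 ± 0.07 SE, edgeR adjusted p = 0.000479). Within a library the *Rrp12* to *Utp20* FPKM ratio was 5.32 and 4.86 in NaBu, against 1.07 and 0.946 in control.

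The snoRNP genes had the lowest median among the larger roles, a log2 fold change of -0.63. Of the 8 genes 7 (87.5%) fell and 1 (12.5%) rose, beside 34.1% and 34.5% of all tested genes. Box H/ACA snoRNPs convert uridine to pseudouridine and are built from dyskerin (*Dkc1*), *Gar1*, *Nhp2* and *Nop10*. *Dkc1* (X:75095854-75109776), the pseudouridine synthase, had 18.1 and 19.5 FPKM in NaBu, against 38.8 and 46.1 FPKM in control, a 2.41-fold fall (log2 fold change -1.27 ± 0.09 SE, edgeR adjusted p = 4.51e-07). *Gar1*, needed for catalysis, had 14.7 and 15.4 FPKM in NaBu, against 26.2 and 28.0 FPKM in control (log2 fold change -0.94 ± 0.09 SE, edgeR adjusted p = 3.74e-06). *Nhp2*, which binds the RNA, had 42.3 and 49.1 FPKM in NaBu, against 68.7 and 69.9 FPKM in control (log2 fold change -0.70 ± 0.08 SE, edgeR adjusted p = 2.27e-05). In each of the 3 the NaBu libraries lay below the controls. *Nop10* (2:112261926-112262898), the smallest protein of the complex, rose instead, with 108 and 113 FPKM in NaBu, against 81.6 and 83.4 FPKM in control (log2 fold change 0.32 ± 0.06 SE, edgeR adjusted p = 0.0011). The *Nop10* to *Dkc1* ratio was 5.97 and 5.78 in NaBu, against 2.10 and 1.81 in control, and the *Nop10* to *Gar1* ratio was 7.31 and 7.32 in NaBu, against 3.12 and 2.98 in control.

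Box C/D snoRNPs methylate rRNA, with fibrillarin (*Fbl*) as the methyltransferase and *Nop56* and *Nop58* as the paired scaffold; all 3 genes fell. *Fbl* had 119 and 118 FPKM in NaBu, against 162 and 163 FPKM in control (log2 fold change -0.55 ± 0.06 SE, edgeR adjusted p = 9.49e-06). *Nop56* had 62.7 and 71.7 FPKM in NaBu, against 108 and 118 FPKM in control (log2 fold change -0.85 ± 0.08 SE, edgeR adjusted p = 4.13e-06). The groups were apart for both genes. *Nop58* had 59.8 and 62.4 FPKM in NaBu, against 60.9 and 75.6 FPKM in control, so that 1 control library lay between the NaBu libraries (log2 fold change -0.26 ± 0.09 SE, edgeR adjusted p = 0.0279). Among the called genes of the 50 only *Nop58* had overlapping groups. Of the genes that did not pass, 5 also had both NaBu libraries above both controls. Separation was not counted over all tested genes, so separated groups are not read as support for a call. *Nop58* kept its call in 5 of 14 alternatives. The call was lost without NaBu 1 (edgeR adjusted p = 0.194), without NaBu 2 (0.114), without control 2 (0.159), with library totals (0.14) and with no filter on low counts (0.113), and also with the GC trend removed and in the limma fits. The *Nop58* to *Nop56* ratio was 0.953 and 0.871 in NaBu, against 0.566 and 0.638 in control. *Nolc1*, which encodes a chaperone of both snoRNP classes, had 41.8 and 42.4 FPKM in NaBu, against 46.8 and 52.3 FPKM in control (log2 fold change -0.33).

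**Figure D3:**
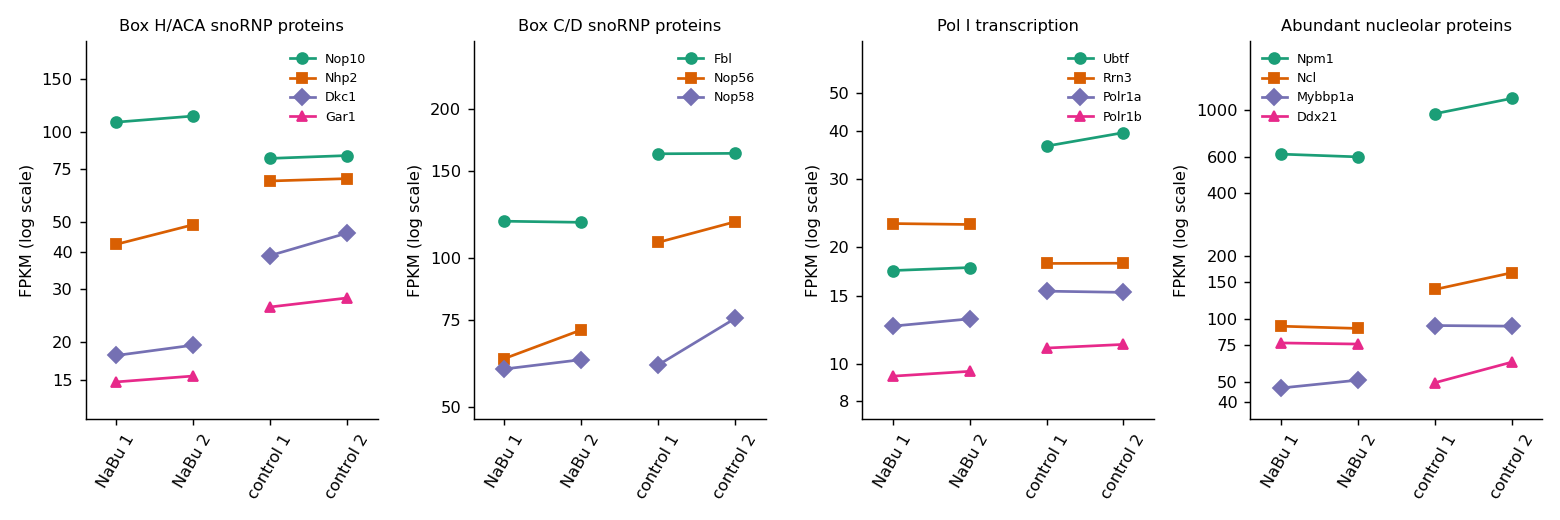
FPKM (log scale) of 15 genes in each library, NaBu 1 and 2 on the left and control 1 and 2 on the right of each panel; lines join the libraries of a group and carry no order. *Nop10*, *Rrn3* and *Ddx21* lie higher in NaBu, whereas *Dkc1*, *Ubtf*, *Npm1* and *Ncl* lie lower.

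Among the 14 genes of large-subunit assembly 8 (57.1%) fell, 1 (7.14%) rose and 5 did not pass, beside 34.1% lower and 34.5% higher over all tested genes. The median log2 fold change was -0.23, and fewer of the 14 genes fell without NaBu 1. *Npm1* (11:33152498-33164142), nucleophosmin, a histone and ribosome chaperone of the outer nucleolus, was the most abundant of the 50 in every library. It had 616 and 598 FPKM in NaBu, against 962 and 1139 FPKM in control. The controls differed from each other by less than the distance to the NaBu libraries (log2 fold change -0.88 ± 0.09 SE, edgeR adjusted p = 5.95e-06). The RNA helicase gene *Ddx18* had 27.1 and 28.4 FPKM in NaBu, against 40.8 and 44.8 FPKM in control (log2 fold change -0.72 ± 0.07 SE, edgeR adjusted p = 5.58e-06).

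*Gnl3*, nucleostemin, a nucleolar GTPase of dividing cells, had 16.9 and 15.2 FPKM in NaBu, against 21.7 and 24.3 FPKM in control (log2 fold change -0.61). *Ebna1bp2* had 17.4 and 16.2 FPKM in NaBu, against 21.6 and 23.3 FPKM in control (log2 fold change -0.52). *Rrs1*, which helps place the small rRNA of the large subunit with its proteins, had 15.04 and 15.07 FPKM in NaBu, against 18.4 and 20.5 FPKM in control (log2 fold change -0.47). These 3 fell with the groups apart. *Noc2l* fell by 0.24 on the log2 scale, whereas its partner in yeast, *Noc3l*, did not pass (log2 fold change -0.21, edgeR adjusted p = 0.0994), with 5.65 and 5.77 FPKM in NaBu, against 5.56 and 6.77 FPKM in control.

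The PeBoW complex, which *Pes1*, *Bop1* and *Wdr12* encode and which large-subunit rRNA maturation requires, gave 2 of 3 genes lower. *Wdr12* had 7.29 and 7.49 FPKM in NaBu, against 8.46 and 9.07 FPKM in control (log2 fold change -0.35). *Pes1* had 38.0 and 35.7 FPKM in NaBu, against 39.7 and 39.8 FPKM in control (log2 fold change -0.21). *Bop1* had 40.3 and 39.6 FPKM in NaBu, against 38.8 and 39.1 FPKM in control (log2 fold change -0.06, edgeR adjusted p = 0.369). *Bop1* thus did not pass, its sign depended on the scale, and with the GC trend removed it was called lower (log2 fold change -0.20, edgeR adjusted p = 0.00516). The calls of *Pes1* and *Noc2l* were lost without either NaBu library, and that of *Wdr12* without NaBu 1 (edgeR adjusted p = 0.0578). The GTPase gene *Gnl2* (log2 fold change 0.12), *Rrp1b* (-0.06) and *Nop16* (-0.18) did not pass. *Gnl2* kept that result in 8 of 14 alternatives and was called higher in the others. *Nop2*, encoding an rRNA cytosine methyltransferase of the large subunit, rose, with 38.9 and 37.0 FPKM in NaBu, against 25.5 and 28.9 FPKM in control (log2 fold change 0.38 ± 0.07 SE, edgeR adjusted p = 0.000824). Both NaBu libraries were above both controls for *Nop2*.

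For Pol I itself, a factor that marks active rRNA genes fell most while an initiation factor rose. Of 7 genes 3 (42.9%) fell, 1 (14.3%) rose and 3 did not pass, with a median log2 fold change of -0.07. Over all tested genes 34.1% fell and 34.5% rose. With only 7 genes the lower share is near that of all tested genes, and 57.1% passed, against 68.6% of all. *Ubtf* (11:102304560-102323649), the upstream binding factor that keeps rRNA genes in an open state, had 17.4 and 17.7 FPKM in NaBu, against 36.5 and 39.5 FPKM in control. It was lower in both NaBu libraries, a 2.33-fold fall (log2 fold change -1.22 ± 0.06 SE, edgeR adjusted p = 6.63e-08). *Rrn3* (16:13780699-13814841), the growth-regulated factor that makes Pol I competent to initiate, had 23.0 and 22.9 FPKM in NaBu, against 18.2 and 18.2 FPKM in control (log2 fold change 0.24 ± 0.06 SE, edgeR adjusted p = 0.00485). The *Rrn3* groups did not overlap, but the call was lost without NaBu 1 (edgeR adjusted p = 0.0741) or without NaBu 2 (0.0702). The *Rrn3* to *Ubtf* FPKM ratio was 1.32 and 1.29 in NaBu, against 0.498 and 0.460 in control, so that the order of the pair was opposite in the groups.

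Both catalytic subunits of Pol I fell. *Polr1a*, the largest subunit, had 12.5 and 13.1 FPKM in NaBu, against 15.4 and 15.3 FPKM in control (log2 fold change -0.36 ± 0.06 SE, edgeR adjusted p = 0.000352). *Polr1b*, which completes the active centre, had 9.30 and 9.57 FPKM in NaBu, against 10.99 and 11.23 FPKM in control (log2 fold change -0.33 ± 0.07 SE, edgeR adjusted p = 0.00195). Their ratio was 1.35 and 1.37 in NaBu, against 1.40 and 1.36 in control, with overlapping groups. *Polr1c*, a subunit shared with RNA polymerase III, had 32.5 and 32.6 FPKM in NaBu, against 30.8 and 32.1 FPKM in control (log2 fold change -0.05, edgeR adjusted p = 0.572). *Polr1e*, a Pol I-specific subunit, had 5.44 and 5.02 FPKM in NaBu, against 4.71 and 5.14 FPKM in control (log2 fold change -0.01, edgeR adjusted p = 0.963), and *Taf1d*, of the promoter selectivity factor, had a log2 fold change of -0.07. These last 3 did not pass, and the sign of each depended on the scale.

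The remaining 3 genes encode abundant nucleolar proteins and all passed. *Mybbp1a* (11:72441327-72451770), a nucleolar protein bound to Pol I and to transcription factors, had 46.6 and 50.9 FPKM in NaBu, against 92.9 and 92.3 FPKM in control, a 2.03-fold fall (log2 fold change -1.02 ± 0.07 SE, edgeR adjusted p = 2.50e-07). *Ncl* (1:86344719-86359455), nucleolin, which binds the rRNA precursor, had 92.3 and 90.0 FPKM in NaBu, against 138 and 166 FPKM in control (log2 fold change -0.84 ± 0.09 SE, edgeR adjusted p = 9.92e-06). Neither gene had overlapping groups. The RNA helicase gene *Ddx21*, which acts in both Pol I and RNA polymerase II transcription, rose, with 76.7 and 75.8 FPKM in NaBu, against 49.4 and 62.0 FPKM in control (log2 fold change 0.36 ± 0.09 SE, edgeR adjusted p = 0.00602). The call of *Ddx21* was lost without NaBu 1 (edgeR adjusted p = 0.0679), without NaBu 2 (0.063) and with no filter on low counts (0.0749).

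The 5 genes that rose were spread over the 5 roles, 1 in each. Pairs of a gene that rose and a gene that fell in the same role, chosen after their values were seen, had separated ratios: the *Ddx21* to *Ncl* ratio was 0.831 and 0.842 in NaBu, against 0.357 and 0.373 in control, and the *Nop10* to *Nhp2* ratio was 2.55 and 2.30 in NaBu, against 1.19 and 1.19 in control. The *Nop2* to *Npm1* ratio was 0.0631 and 0.0618 in NaBu, against 0.0265 and 0.0254 in control. Ratios within a library do not depend on the scale between libraries, and they show unequal change of the pair only.

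**Figure D4:**
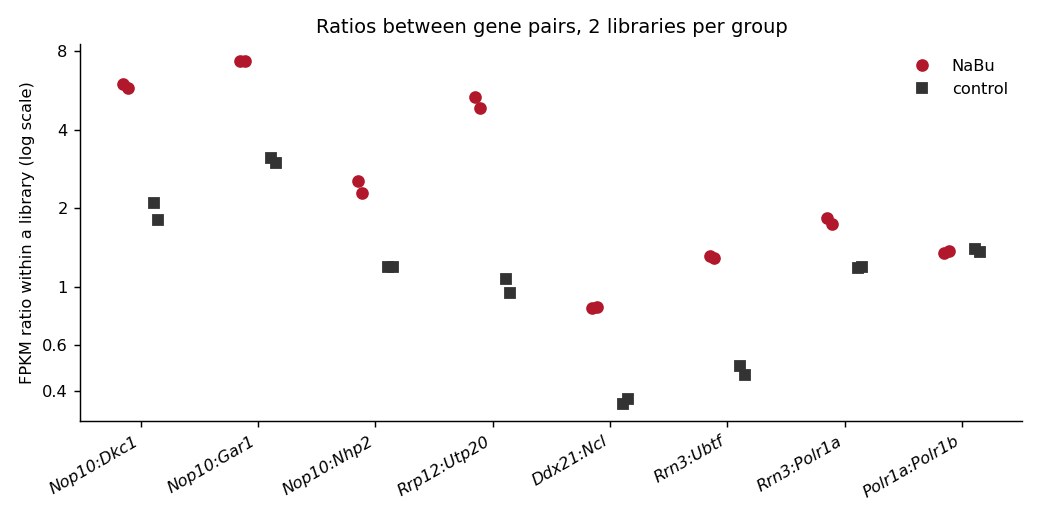
FPKM ratio (log scale) of 8 gene pairs within each library, NaBu as circles on the left and control as squares on the right of each pair. The ratios of *Nop10*, *Rrp12*, *Ddx21* and *Rrn3* to a partner lie higher in both NaBu libraries, and the *Polr1a* to *Polr1b* ratio, at 1.35 and 1.37 in NaBu against 1.40 and 1.36 in control, overlaps.

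Several of the genes have snoRNA genes inside their bounds, and whether these lie in introns was not tested. By the GENCODE vM21 annotation *Wdr43*, *Tsr1*, *Nop56*, *Nop58*, *Dkc1*, *Gnl3*, *Taf1d* and *Ncl* hold 29 snoRNA genes together. Of these 8 hosts 6 fell and 2 did not pass, with a median log2 fold change of -0.44. Of the other 42 genes 25 fell, 5 rose and 12 did not pass, with a median of -0.24. The lower and higher shares of all tested genes were 34.1% and 34.5%. With only 8 hosts these counts are coarse, and a difference between hosts and the other genes was not tested. The snoRNAs themselves could not be read here, since 9 of the 29 were listed and the highest count of any of them was 6 in a library.

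Neighbouring and near-identical genes bear on a few values. *Utp14b*, a close copy of *Utp14a*, had 1.81 and 1.58 FPKM in NaBu, against 2.47 and 2.77 FPKM in control, and reads may be divided between the copies. By the same annotation 22 of the 50 genes share exon bases with a gene on the opposite strand, and the sources used here do not say whether the libraries kept strand. *Tsr1* shares 1240 bases with *Srr*, which had 8.36 and 8.35 FPKM in NaBu, against 3.28 and 2.49 FPKM in control, and *Mybbp1a* shares 131 bases with *Spns2*, which had 12.0 and 12.2 FPKM in NaBu, against 1.41 and 0.90 FPKM in control. Both partners were higher in NaBu while *Tsr1* and *Mybbp1a* were lower. *Bysl*, at 11.9 and 12.7 FPKM in NaBu, against 10.04 and 11.16 FPKM in control, shares 361 bases with the far more abundant *Ccnd3*, which had 295 and 313 FPKM in NaBu, against 334 and 303 FPKM in control. The residual rRNA precursor entry *Rn45s* had 292 and 329 counts in NaBu, against 227 and 189 in control, in libraries whose rRNA removal is not stated, so its level does not measure rRNA synthesis.

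Among further genes of the same steps more fell than rose on the TMM scale. Of 43 further small-subunit factors 21 (48.8%) fell and 7 (16.3%) rose (median log2 fold change -0.22), beside 34.1% and 34.5% of all tested genes. The UTP-B subunit gene *Pwp2* had a log2 fold change of -1.19 ± 0.08 (SE), with 3.78 and 3.86 FPKM in NaBu, against 8.06 and 8.19 FPKM in control (edgeR adjusted p = 5.99e-07). *Nol6*, of the UTP-C subcomplex in yeast, fell by 1.15 and *Pno1*, the partner of *Nob1*, by 0.76 on the log2 scale, while the helicase gene *Dhx37* rose by 0.66. Of 54 further large-subunit factors 26 (48.1%) fell and 7 (13.0%) rose (median -0.15), led by *Rrp15* (-1.54), *Lyar* (-0.97), *Wdr18* (-0.94) and the helicase gene *Ddx56* (-0.94). Of 14 further Pol I genes 4 (28.6%) fell and 2 rose (median -0.03), a lower share than the 34.1% of all tested genes. With library totals 1 of them fell and 4 rose, leaving out NaBu 2 gave 1 lower and 1 higher, and leaving out NaBu 1 or control 2 gave 2 lower and 2 higher. Among them *Tcof1*, treacle, a partner of *Ubtf* on rRNA genes, had 38.2 and 37.9 FPKM in NaBu, against 63.7 and 65.1 FPKM in control (log2 fold change -0.86 ± 0.06 SE, edgeR adjusted p = 4.08e-07). *Polr1d*, a subunit shared with RNA polymerase III, rose, with 147 and 153 FPKM in NaBu, against 108 and 105 FPKM in control (log2 fold change 0.43).

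The nuclear RNA exosome and its helpers trim rRNA ends. Of 25 tested genes of this list 18 (72.0%) fell and 2 (8.0%) rose, beside 34.1% and 34.5% of all tested genes. The median log2 fold change of the list was -0.45. *Exosc8* had 27.3 and 31.8 FPKM in NaBu, against 65.5 and 69.0 FPKM in control (log2 fold change -1.28 ± 0.08 SE, edgeR adjusted p = 2.55e-07). The RNase P and MRP protein gene *Rpp30* fell by 1.21, the exosome core gene *Exosc6* by 0.99 and the catalytic subunit gene *Exosc10* by 0.98 on the log2 scale. Groups were apart for each of these 4 genes.

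Genes of the other polymerases moved in both directions, and most genes of the ribosome itself did not pass. Over all tested genes 34.1% fell and 34.5% rose. Of 26 RNA polymerase III genes 11 (42.3%) fell and 4 (15.4%) rose (median log2 fold change -0.15), with *Polr3d* at -0.99 and *Snapc1* at 1.02. Of 8 RNA polymerase II subunit genes 4 fell and 2 rose (median -0.09), with *Polr2d* at -0.53 and *Polr2g* at 0.77. Of 82 cytosolic ribosomal protein genes 10 (12.2%) fell, 16 (19.5%) rose and 56 did not pass, with a median log2 fold change of 0.01. In all 31.7% of them passed, against 68.6% of all tested genes. With library totals as the scale 5 of the ribosomal protein genes fell and 28 rose, leaving out NaBu 1 gave 3 lower and 7 higher, and leaving out NaBu 2 gave 5 lower and 3 higher. *Rps10* had 1628 and 1641 FPKM in NaBu, against 1280.0 and 1086 FPKM in control (log2 fold change 0.37). *Rpl5* (log2 fold change 0.21, edgeR adjusted p = 0.0227) and *Rpl11* (0.09, edgeR adjusted p = 0.219) encode the ribosomal proteins that bind Mdm2 when assembly is disturbed. *Myc*, the transcription factor known to drive ribosome biogenesis genes, had 182 and 179 FPKM in NaBu, against 105 and 93.3 FPKM in control. *Myc* was therefore higher in both NaBu libraries, with a log2 fold change of 0.77 ± 0.07 (SE, edgeR adjusted p = 3.20e-06), while 31 of the 50 ribosome biogenesis genes fell.

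**Figure D5:**
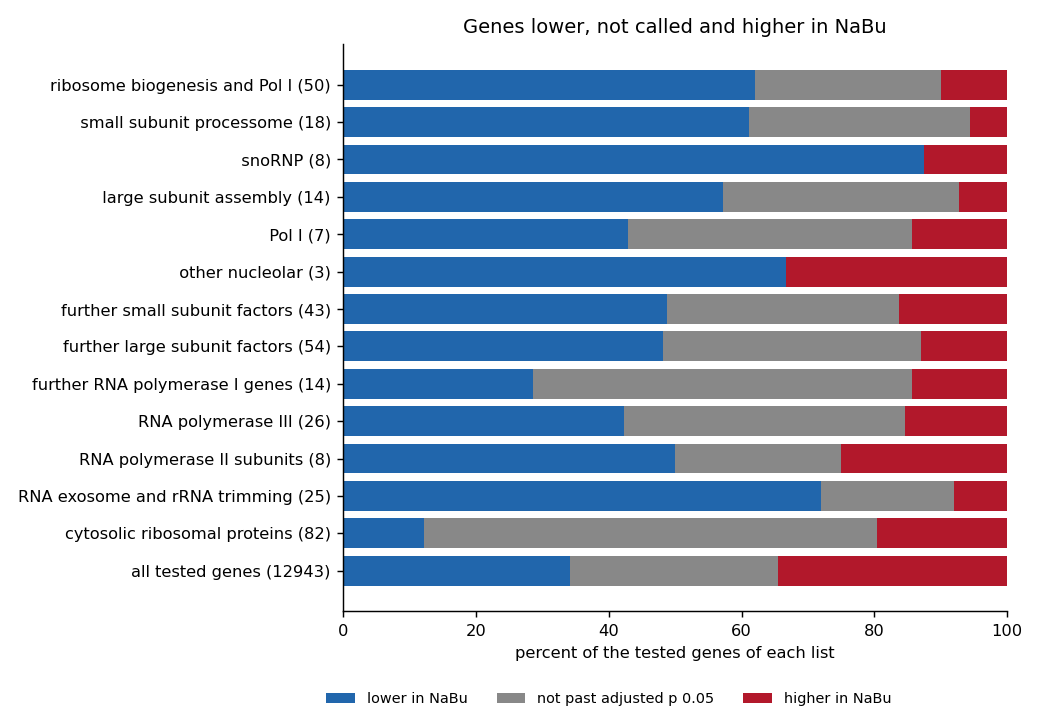
Percent of the tested genes of each list that were lower in NaBu (blue), did not pass an adjusted p of 0.05 (grey) or were higher in NaBu (red), with the number tested in brackets. The lower share was 62.0% for the 50 genes and 72.0% for the exosome list, beside 12.2% for cytosolic ribosomal proteins and 34.1% for all tested genes.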

How the data were processed

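RNA-seq of 2 NaBu and 2 control libraries was used. The submitters' processing notes name Bowtie2, RSEM and mm10, and the sources used here do not give versions, library kit, strandedness or annotation release. Per the file headers, each deposited file holds expected counts, FPKM and transcript length by gene. The deposited expected counts, which RSEM estimates by dividing shared reads, were rounded to whole numbers for testing, and the authors' FPKM were used unchanged. The deposited table of the whole series held the same FPKM values (largest difference 0.0).

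Library totals ran from 19857701 to 20548571 expected counts. edgeR 4.0.16 in R 4.3.3 kept 12943 genes with filterByExpr at its defaults, holding 99.95% of the counts, and used TMM factors of 1.035 and 1.0335 for NaBu and 0.968 and 0.9658 for control. edgeR's quasi-likelihood test had no covariates and 2 residual degrees of freedom, and p-values were adjusted by Benjamini-Hochberg over all tested genes and called at 0.05. glmTreat gave the test against a 1.5-fold null. With 2 libraries per group the smallest two-sided exact permutation p is 0.333, so none was run. Nothing in the labels says that the libraries of a group came from separate cultures or animals, and p-values then cover only the spread among the 4 libraries, which may be technical. The test was tried on simulated counts first.

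The 50 genes and all other lists were chosen with earlier results of these data known. The rule for naming allowed all 50, and of each other list the 4 largest called changes where the higher group averaged at least 5 FPKM, plus *Myc*, *Tcof1*, *Rpl5* and *Rpl11*, though not every gene so chosen is reported here. Subcomplexes, ratio pairs, snoRNA hosts and neighbouring genes were chosen after values were seen. *Cirh1a*, *Nol11* and *Tbl3* were named outside the rule, also after values were seen, to set beside the UTP-A and UTP-B counts. Coordinates, transcript GC and promoter windows came from RefSeq GRCm38.p6 and GENCODE vM21. Alternatives used median-of-ratios factors, library totals, other filters, a replicate block, DESeq2 1.42.0, limma 3.58.1 on log2(FPKM + 1) and log2(FPKM + 0.1), each library left out, CPM levels computed from the deposited counts and, added after seeing the data, removal of a GC trend.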

Additional observations from a re-analysis of the deposited data

How the results depend on the processing

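Replicate numbers correlated at -0.03 in their deviations from the group means and nothing in the labels makes them pairs. With the number as a replicate block, 29 of the 50 genes fell and 5 rose, and *Wdr3* (edgeR adjusted p = 0.0547) and *Noc4l* (0.078) no longer passed. Over the 14 alternatives to the gene test, 26 of the 50 genes kept their call (19 lower, 3 higher, 4 not passing). Each library in turn being left out gave 22 to 34 genes lower and 3 to 6 higher, and 6 to 9 lower past the 1.5-fold null. The counts over all tested genes stayed within 1.5 times the main ones under every alternative run.

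With library totals 8 of the 50 genes rose, and with limma on log2(FPKM + 1) and no filter 20 fell. In the small-subunit processome, 6 genes fell with library totals and with limma on log2(FPKM + 1) or log2(FPKM + 0.1), and 4 with limma and no filter. There 3 rose with library totals and 2 with a 5 CPM filter, with the GC trend removed and with limma at either pseudocount. In large-subunit assembly 2 rose with library totals, the 5 CPM filter, the GC trend removed and each of the limma fits. Of the other nucleolar genes 0 rose with no filter on low counts or with limma and no filter, where *Ddx21* was lost. Leaving out libraries gave, by role, 6 to 12 lower and 1 to 2 higher (small-subunit processome), 6 to 7 and 1 to 1 (snoRNP), 5 to 10 and 1 to 1 (large-subunit assembly), 3 to 3 and 0 to 1 (Pol I), and 2 to 2 and 0 to 1 (other nucleolar).

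Among the other lists, 11 further small-subunit factors rose with library totals and with limma at either pseudocount. Of further large-subunit factors 17 fell with library totals and 15 with limma and no filter. Of further Pol I genes 1 fell with library totals, DESeq2 or limma with no filter, and 2 with the 5 CPM filter or limma at either pseudocount, while 4 rose with library totals or limma at either pseudocount and 1 with no filter. Of RNA polymerase III genes 7 fell with limma and no filter. Of ribosomal protein genes 5 fell and 28 rose with library totals or limma at either pseudocount, 3 fell with limma and no filter, and 8 rose with no filter. Leaving out libraries gave 15 to 26 lower and 5 to 8 higher (further small-subunit), 17 to 27 and 5 to 7 (further large-subunit), 1 to 5 and 1 to 2 (further Pol I), 9 to 12 and 3 to 5 (RNA polymerase III), 3 to 4 and 1 to 3 (RNA polymerase II), 14 to 18 and 0 to 3 (exosome), and 3 to 15 and 3 to 21 (ribosomal proteins). The cause of these moves was not tested, apart from the scale shift of library totals.

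A change of sign was seen for 5 of the genes that did not pass. *Bop1* had log2 fold changes of 0.04 with library totals and 0.03, 0.04 and 0.03 with limma (pseudocounts 1 and 0.1, and no filter), *Rrp1b* 0.03 and 0.02 in each, and *Polr1c* 0.05 and 0.05 in each, with 0.01 at the 5 CPM filter. *Polr1e* had 0.00 with median-of-ratios factors and with DESeq2, 0.09 with library totals, 0.05 at the 5 CPM filter, 0.07, 0.09 and 0.07 with limma, and -0.07 to 0.05 as libraries were left out (above 0 without NaBu 2 or control 2). *Taf1d* had 0.03 with library totals, 0.10 with the GC trend removed, 0.02 with each limma fit, and -0.18 to 0.05 as libraries were left out (above 0 without NaBu 2 or control 2).

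With 2 libraries per group, changes near the threshold are the least certain: *Noc4l* and *Wdr3* lie just inside it and *Utp3* and *Wdr43* just outside. The lowest count of the 50 genes in a library was 342, and depth does not bear on differences between cultures.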
